A study of Rattus norvegicus with 56 samples.

Results

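Neuropeptide precursor mRNAs were followed in 2 brain regions, hippocampus and parietal cortex, of rats given brain stimulation or a sham treatment. The 10 genes were Penk, Pdyn, Tac1, Npy, Sst, Cck, Vip, Nts, Crh and Adcyap1, and every non-control probe whose RefSeq accession belongs to 1 of these symbols was taken. This gave 13 probes of the 45598 non-control probes on the array, and 10 of the 16581 gene symbols that a probe could be given. Penk, Crh and Adcyap1 had 2 probes each, and the probe well above background on most arrays stands for the gene below.

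All animals were male Long-Evans rats, sedated with isoflurane and dexmedetomidine before the procedure, and all were killed 48 h after a single session. Intermittent theta burst stimulation (iTBS) delivers magnetic pulses to the brain in short repeated bursts. It was given through a coil above the skull, and sham stimulation was given with the coil held away from the head. Ages were 6 to 7 months in young rats (Y) and 26 to 27 months in aged rats, and a water maze test of spatial memory divided the aged rats into unimpaired (AU) and impaired (AI) animals. There were 4 animals each in Y_Sham, AU_Sham, AI_Sham and Y_iTBS, 5 in AU_iTBS and 3 in AI_iTBS, and both regions came from each of the 24 animals. The pieces were bulk tissue taken from beneath the coil, so that fewer cells of a type and less RNA per cell cannot be told apart in any value given here. Replicates were separate animals.

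Neuropeptides are cut from larger precursor proteins, which convertases such as Pcsk1 and Pcsk2 and the carboxypeptidase Cpe process inside dense-core vesicles, and the released peptides act mostly on G-protein-coupled receptors. In cortex and hippocampus Sst, Npy, Vip and part of Cck expression belongs to GABAergic interneurons, while Pdyn is characteristic of dentate granule cells. Precursor mRNA is widely used as a marker of peptidergic cells, and several of these genes are classical targets of cyclic AMP and calcium signalling.

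RefSeq promoter windows (rat build GRCr8, 250 bases before to 50 after the annotated start) were on hand for 7 of the 10 genes, and none was given for Penk, Cck and Crh. The cyclic AMP response element TGACGTCA was searched on both strands, as was its shorter core TGACG, which lies within it. The full element occurred in 1 of the 7 windows, that of Sst, against 1.83% of all 33469 windows of 300 bases. The core occurred in 4 of the 7, against 21.2% of all windows. These 4 are printed 5′ to 3′ on the strand of the gene, up to 30 bases after the start, because Sst holds the full element and the other 3 its core, and capitals mark the element or core. Sst lies at chr11:90461296-90461575 on the plus strand, Vip at chr1:44470230-44470509 on the plus strand, Tac1 at chr4:36645333-36645612 on the plus strand and Nts at chr7:39460859-39461138 on the minus strand.
Sst: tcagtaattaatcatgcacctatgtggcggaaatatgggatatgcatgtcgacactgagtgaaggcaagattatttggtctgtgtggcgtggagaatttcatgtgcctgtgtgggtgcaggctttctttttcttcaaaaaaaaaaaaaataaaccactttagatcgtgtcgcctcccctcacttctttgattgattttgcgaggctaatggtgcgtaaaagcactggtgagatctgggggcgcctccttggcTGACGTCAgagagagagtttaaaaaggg
Vip: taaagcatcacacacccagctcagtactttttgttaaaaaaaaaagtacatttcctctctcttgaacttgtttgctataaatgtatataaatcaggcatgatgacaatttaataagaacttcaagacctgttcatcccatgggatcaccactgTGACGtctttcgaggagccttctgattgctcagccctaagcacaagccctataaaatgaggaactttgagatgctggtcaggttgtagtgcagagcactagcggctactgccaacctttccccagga
Tac1: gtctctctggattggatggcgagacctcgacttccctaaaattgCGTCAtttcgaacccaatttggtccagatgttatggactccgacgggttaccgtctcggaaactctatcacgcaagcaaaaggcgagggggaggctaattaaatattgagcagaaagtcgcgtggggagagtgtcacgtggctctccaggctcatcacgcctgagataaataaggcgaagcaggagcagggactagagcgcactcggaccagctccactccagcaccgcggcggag
Nts: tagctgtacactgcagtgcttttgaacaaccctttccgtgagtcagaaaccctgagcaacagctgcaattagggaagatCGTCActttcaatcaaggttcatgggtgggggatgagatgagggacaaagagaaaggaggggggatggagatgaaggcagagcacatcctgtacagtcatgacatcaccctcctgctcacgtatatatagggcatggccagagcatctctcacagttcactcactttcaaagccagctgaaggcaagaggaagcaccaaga

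Counted from the annotated start, the Sst element covered positions 3 to 10, the Vip core -97 to -93, the Tac1 core -206 to -202 and the Nts core -171 to -167, the last of these and that of Tac1 on the opposite strand. The AP-1 sequence TGANTCA occurred in the Nts window only, at -212 to -206, against 7.33% of all windows. The TATA sequence TATAAA was found in the windows of Pdyn, Vip and Adcyap1 (14.2% of all windows) and the GC box GGGCGG in that of Npy (33.1%). These are matches of letters, and no binding was measured.

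Levels are log2 processed signals brought to 1 scale per array, where 0 is the mean of that array's probes and a difference of 1 is a doubling of signal. Levels of different genes come from different probes and are not ranked against each other. Of 45598 probes, between 59.3% and 69.7% were well above background on an array. The region labels were borne out by marker genes, since 6 of 6 cortex markers, among them Rorb, Cux2, Foxp2, Fezf2 and Lamp5, were called higher in the cortex and 4 of 5 tested hippocampus markers higher in the hippocampus, with Prox1 not called. The arrays of 15 animals were scanned in 1 batch and those of the other 9 later, and each of the 6 groups had animals in both. Later cortex arrays formed batch 2 and later hippocampus arrays batch 3, apart from 1 AU_iTBS hippocampus array in batch 2. For the later animals other than that 1, region and scan batch cannot be told apart. Hippocampus and region fits within the later scans left that animal out. Several groups had only 1 animal in the later scans, so differences within them are a description. Technical repeats, 6 arrays of 4 tissue pieces, were averaged with their first arrays. A repeat labelled AI_iTBS 2 cortex was left out because it matched the cortex of AI_Sham 2 (r = 0.98 over 61 probes) and not its own animal (r = -0.20), and 1 array with conflicting labels was in no comparison. Between repeat and first array the members differed by a median of 0.10 on the log2 scale over 57 pairs of array and gene, with Nts in the cortex set aside.

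The largest differences among the neuropeptide genes were between the regions. All 10 genes were called different between hippocampus and cortex within animals, 2 higher in the hippocampus and 8 higher in the cortex (limma with Benjamini-Hochberg adjustment over all probes, called at an adjusted p under 0.05). Of all 33720 probes tested in this comparison 49.5% were called, 26.3% as higher in the hippocampus and 23.2% as higher in the cortex, so a call by itself was common. The median difference of the 10 genes, hippocampus minus cortex, was -0.82 on the log2 scale, and that of all probes 0.02. In the 12 sham animals alone the same comparison again called 2 higher and 8 lower, against 36% of all probes called (19.2% as higher in the hippocampus and 16.7% as higher in the cortex).

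Nts, the precursor of neurotensin, showed the widest gap. In the hippocampus its level had a lowest value of 3.65, a median of 4.96 and a highest of 5.53 over the 24 animals, and it was well above background in all. In the cortex the values ran from -5.14 through a median of -3.49 to 1.47, and only 8 of 24 animals were above background. No hippocampus value reached down to any cortex value, a separation seen for 3 of the 10 genes (Nts, Crh and Vip) and for 2.87% of all probes. In the young rats none of 8 cortex samples was above background. With their values raised to the lowest level of any probe above background, the hippocampus was 293-fold higher (mean 5.04 against -3.16, measured cortex mean -4.36). Over all animals the fitted difference was 8.05 on the log2 scale, and 5.54 with normexp background correction.

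Crh and Vip led the genes that were higher in the cortex. Crh encodes corticotropin-releasing hormone, the peptide that starts the stress axis and is also made by interneurons. Its hippocampus level ran from 1.06 through a median of 1.53 to 1.83 and its cortex level from 2.72 through 3.33 to 3.89, without overlap. The difference was -1.88 ± 0.05 (± is the SE of a difference throughout, n = 24 animals, limma adjusted p 2.09e-17), and a second Crh probe gave -1.83. Vip, vasoactive intestinal peptide, ran from 3.79 through 4.49 to 5.07 in the hippocampus and from 5.66 through 6.23 to 6.84 in the cortex, again without overlap, and differed by -1.69 ± 0.09 (SE, n = 24, limma adjusted p 3.19e-12).

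The remaining peptides typical of interneurons were higher in the cortex of every animal. Npy, neuropeptide Y, had values of 7.32 to 8.28 (median 7.76) in the hippocampus and 7.79 to 8.98 (median 8.30) in the cortex. Its difference of -0.62 ± 0.05 was the smallest of these. Sst, somatostatin, ranged from 7.68 to 9.10 (median 8.59) in the hippocampus and from 8.85 to 9.85 (median 9.26) in the cortex, a difference of -0.77 ± 0.07. Cck, cholecystokinin, which pyramidal cells express as well, ranged from 9.19 to 10.13 (median 9.74) and from 9.85 to 11.15 (median 10.54), a difference of -0.86 ± 0.08. For each of the 3 genes the ranges of the regions overlapped, yet within animals the cortex was higher in 24 of 24. Npy, Sst and Vip are also standard labels of interneuron classes, and all 3 fell on the cortical side.

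Of the opioid precursors, Penk and Pdyn went opposite ways. Penk, the enkephalin precursor, had hippocampus values of 3.17 to 4.43 (median 3.93) and cortex values of 4.37 to 5.85 (median 5.02), a difference of -1.09 ± 0.08 (SE, n = 24, limma adjusted p 1.54e-10). Pdyn, the dynorphin precursor, had values of 4.75 to 6.53 (median 5.60) in the hippocampus and 4.49 to 5.46 (median 5.04) in the cortex. It was higher in the hippocampus in 20 of 24 animals, by 0.61 ± 0.10 (limma adjusted p 2.29e-05). The exceptions were all young, namely Y_Sham 2 and 3 and Y_iTBS 2 and 4. Mean Pdyn levels in hippocampus and cortex were 5.31 and 5.15 in young and 5.78 and 4.90 in aged rats. Most of the pooled Pdyn difference thus came from the aged rats. A further Penk probe was well above background in only 4 hippocampus and 6 cortex samples, and its difference of -0.41 was not called (limma adjusted p 0.17).

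Tac1, which encodes substance P and neurokinin A, and Adcyap1, which encodes the peptide PACAP, were also higher in the cortex. Tac1 ran from 3.04 to 4.52 (median 3.89) in the hippocampus and from 4.41 to 6.02 (median 5.11) in the cortex, a difference of -1.26 ± 0.08 found in 24 of 24 animals. Adcyap1 ran from 0.88 to 2.58 (median 2.03) and from 1.56 to 3.02 (median 2.62), a difference of -0.66 ± 0.08 found in 22 of 24. The second Adcyap1 probe gave -0.61. Slide and region were nearly the same split, since only 2 of 7 slides held both, each with only 1 array of the region rarer on it. With slide as a block the Adcyap1 difference was 0.22 and no longer called (limma adjusted p 0.712). The other 9 genes kept their direction and their call under that block. A region difference within slides rests on those few arrays, so this block cannot show how firm the differences are.

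**Figure D1:**
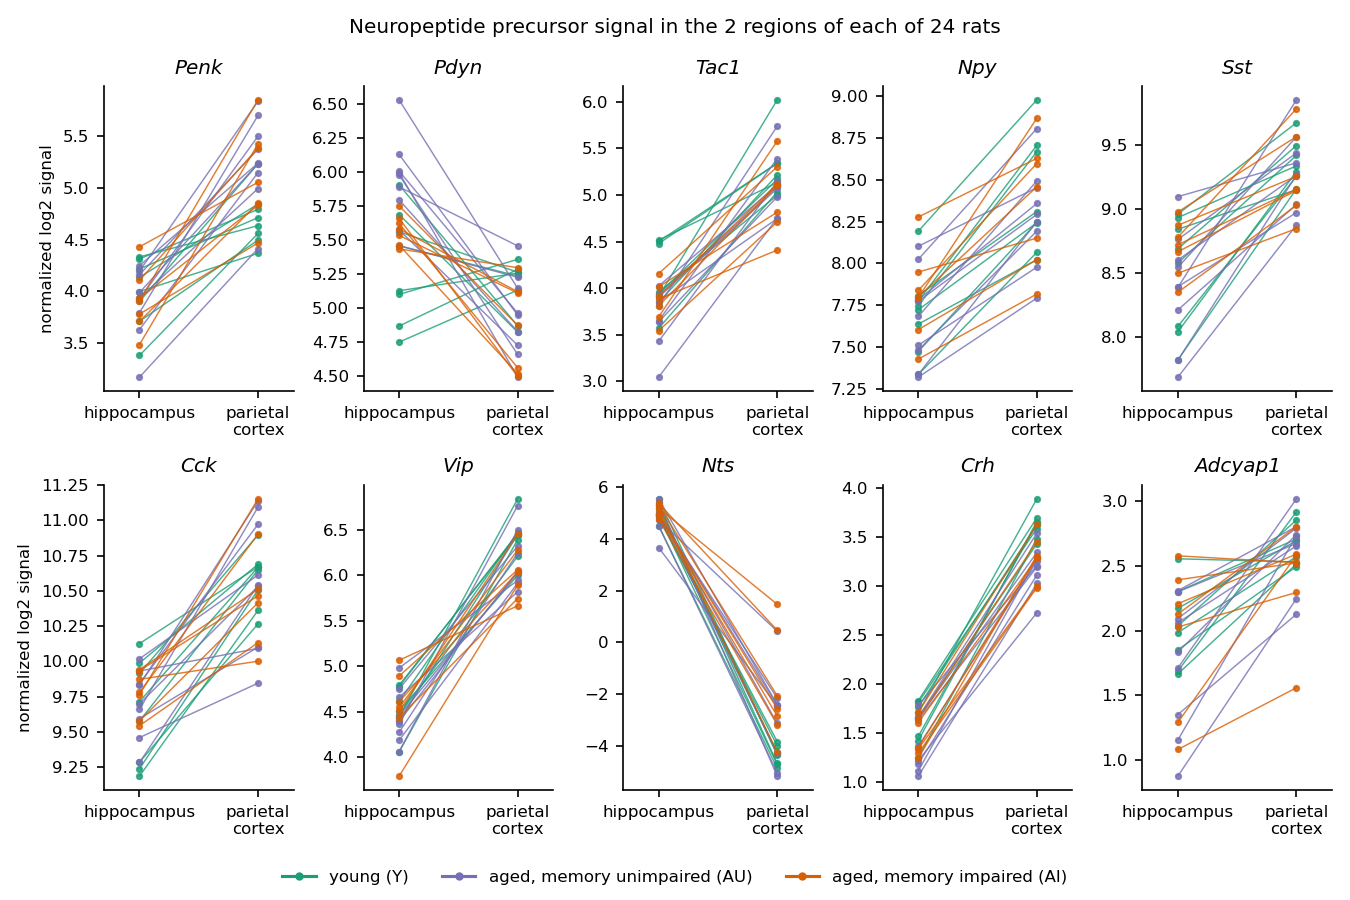
Level of each neuropeptide precursor gene (log2 signal, 0 = mean of the array's probes) in both regions of 24 rats, where each line joins the 2 regions of an animal and colours mark young, aged unimpaired and aged impaired rats. Lines fall toward the hippocampus for 8 genes, rise for Nts in 24 of 24 animals and rise for Pdyn in 20 of 24.

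Receptors and processing enzymes of these peptides were read from separate gene lists. Of 24 receptor and binding protein genes tested, 10 were called higher in the hippocampus and 9 higher in the cortex, against 26.3% and 23.2% of all probes. Their median difference was -0.002 on the log2 scale. Tacr3, the neurokinin B receptor (-2.74 ± 0.13), Crhr1, the main receptor of Crh (-2.18 ± 0.16), and Cckbr, the brain cholecystokinin receptor (-1.84 ± 0.13), were the most cortical. Npy2r, a receptor of neuropeptide Y (2.74 ± 0.16), Tacr2, the neurokinin A receptor (1.34 ± 0.08), and Sstr4, a somatostatin receptor (0.62 ± 0.10), were the most hippocampal. Crh and Crhr1 were both higher in the cortex, as were Cck and Cckbr, whereas Npy was higher in the cortex and Npy2r in the hippocampus.

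Of 11 genes for processing and the dense-core vesicle, 3 were called higher in the hippocampus and 2 higher in the cortex, against 26.3% and 23.2% of all probes. The former were the granin Scg2 (1.19 ± 0.10), the convertase Pcsk1 (0.33 ± 0.07) and Cpe (0.21 ± 0.05). The latter were Scg5, the chaperone of Pcsk2 (-0.52 ± 0.08), and the granin Chga (-0.31 ± 0.06). Among 10 other peptide precursors 6 were called higher in the hippocampus, led by Nmb (3.44 ± 0.08), Trh (2.24 ± 0.17) and Cartpt (1.31 ± 0.31), and 3 higher in the cortex, namely Cort (-1.68 ± 0.09), Grp (-0.90 ± 0.20) and Vgf (-0.50 ± 0.06). Nmb and Grp encode bombesin-like peptides, Trh the thyrotropin-releasing hormone and Cort a relative of somatostatin.

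Markers of the cells and neighbouring structures that could carry these peptides were compared between the regions too. In that comparison 49.5% of all probes were called, so calls in the interneuron and striatum lists were about as common as elsewhere. Of 8 general interneuron markers, Pvalb (-0.83), Reln (-0.70) and Gad1 (-0.32) were called higher in the cortex and Calb2 (0.81) higher in the hippocampus, and the other 4 were not called. The mean level of that list ran from 3.44 to 3.87 in the hippocampus and from 3.50 to 4.10 in the cortex. Of 7 tested striatum markers 3 were called higher in the cortex, among them Ppp1r1b (-0.35) and Pde10a (-0.20), not all called genes being listed, and Drd2 (0.20) was called higher in the hippocampus, while Drd1 differed by -0.15 (limma adjusted p 0.135). All 5 tested hypothalamus markers were called higher in the hippocampus, among them Hcrt (1.82), Oxt (1.58) and Avp (1.01), as were 5 of 6 choroid plexus markers, among them Otx2 (2.93), Folr1 (2.27) and Ttr (1.83). Of 4 thalamus and habenula markers 2 were called higher in the hippocampus and 1 higher in the cortex. The part of such cells or neighbouring tissue in the neuropeptide differences was not tested.

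**Figure D2:**
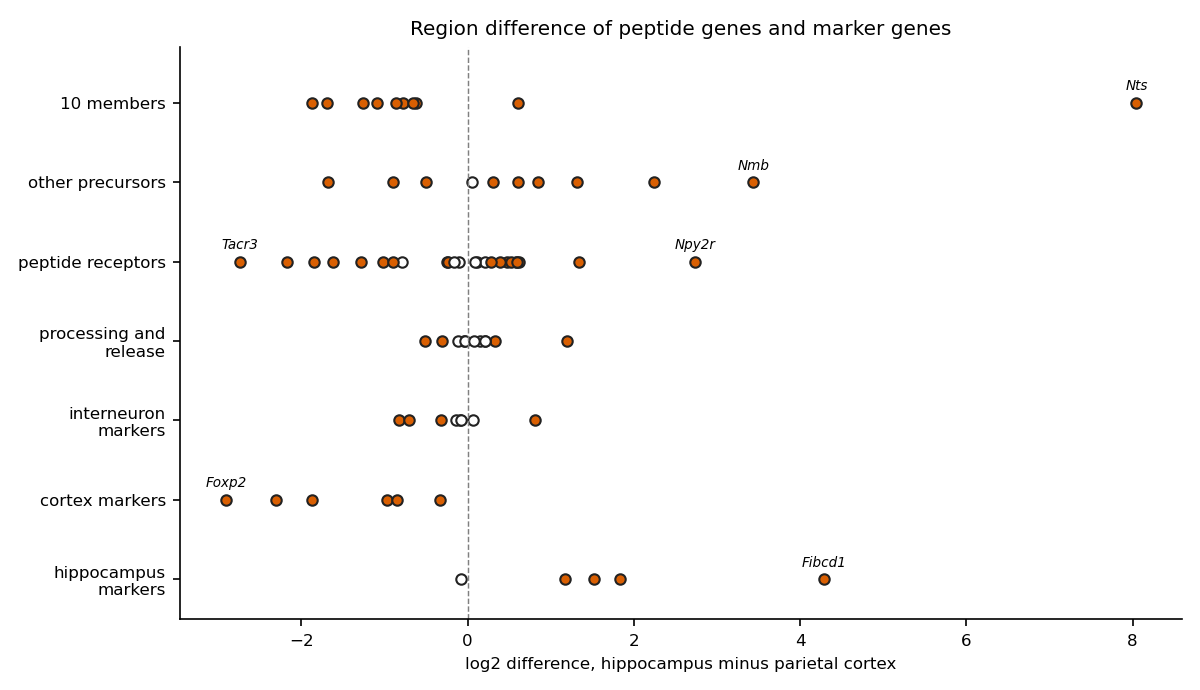
Difference between hippocampus and parietal cortex (log2, hippocampus minus cortex, 24 animals) for the neuropeptide precursors and for each list of receptors, processing genes, other precursors and markers, with a point per gene, filled where called at a limma adjusted p under 0.05 and some of the widest differences named. The 10 precursors have 2 filled points to the right and 8 to the left, while the receptors have 10 and 9.

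Age was compared over all 24 animals, with sham and iTBS groups weighted equally. None of the 10 genes was called in either region by limma, against 0.512% of all probes called in the hippocampus and 0.402% in the cortex. At an unadjusted p under 0.05 the counts were 2 of 10 genes in the hippocampus, where 13.3% of all probes reached that level, and 4 of 10 in the cortex, where 14.3% did. The cortex count includes Nts, which passed the cortex filter only through aged rats, so that count is a description. In sham animals alone no gene was called either (0.00308% of all probes called in the hippocampus and 0.104% in the cortex), and 1 gene in the hippocampus and 2 in the cortex had an unadjusted p under 0.05 (8.22% and 9.47% of all probes). Nts was again among the cortex genes.

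Crh in the cortex came nearest to a call. Its level in Y_Sham animals was 3.66, 3.64, 3.58 and 3.89, and in Y_iTBS animals 3.69, 3.43, 3.62 and 3.48. In AU_Sham animals it was 3.54, 3.25, 3.34 and 3.11, and in AU_iTBS animals 3.02, 2.72, 3.21, 3.19 and 3.28. In AI_Sham animals it was 3.29, 3.45, 2.98 and 2.99, and in AI_iTBS animals 3.28, 3.31 and 3.63. Thus 15 of 16 aged values lay below the young mean of 3.62, with some overlap of the groups. Aged minus young came to -0.38 (95% confidence interval -0.56 to -0.19, limma adjusted p 0.0786), and the second Crh probe gave -0.39 (limma adjusted p 0.0966). The difference was -0.35 within the first scan batch and -0.40 within the later scans. It was called when AU_iTBS 4 (limma adjusted p 0.0463) or AI_Sham 2 (0.0367) was left out, and over its alternatives the adjusted p ranged from 0.0367 to 0.613. In sham animals alone the 8 aged and 4 young values did not overlap, as for 1% of all probes, with a difference of -0.45 (limma adjusted p 0.277), while on the second Crh probe the same groups overlapped (-0.45, limma adjusted p 0.322). In the hippocampus the aged minus young difference of Crh was -0.18 (limma adjusted p 0.475).

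Penk in the cortex was higher in 14 of 16 aged animals than the young mean of 4.70. It ran from 4.37 to 5.23 (median 4.67) in young and from 4.41 to 5.85 (median 5.24) in aged rats, with broad overlap. The difference was 0.47 (95% confidence interval 0.14 to 0.80, limma adjusted p 0.233), and 0.33 and 0.66 within the first and later scans. In the hippocampus the same difference was -0.10. The striatum marker list is tied to tissue rich in Penk, and 6 of its 8 genes were well above background in all 24 cortex samples. Its mean cortex levels over the 8 genes, dim ones included, were 2.05 to 2.92 in young and 2.60 to 3.08 in aged animals. Of its 7 tested genes 3 had positive and 4 negative differences by age (median -0.06). In all, 3 reached an unadjusted p under 0.05 (14.3% of all probes), and none was called. The part of such tissue in the Penk values was not tested.

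Nts in the cortex was above background in 8 of 16 aged and 0 of 8 young animals. The gene thus entered the cortex fits only through aged rats, and these counts are a description. The split was 5 of 10 against 0 of 5 in the first scan batch and 3 of 6 against 0 of 3 in the later scans. The detected animals were AU_Sham 1 and 4, AU_iTBS 1 and 4, AI_Sham 1, 3 and 4, and AI_iTBS 2. AI_Sham 3 at 1.47, AI_Sham 4 at 0.47 and AU_iTBS 1 at 0.43 stood above all other cortex samples. Precision here was poor, since the first cortex array of AU_iTBS 4 gave 0.18 and its repeat -5.02, and without that animal the split was 7 of 15 against 0 of 8. The fitted difference of 1.93 (measured means -2.46 in aged and -4.36 in young rats) was not called (limma adjusted p 0.228), and it was 0.60 with normexp background correction. Hippocampus markers had mean levels of 3.48 to 4.09 in the cortex of the 8 animals with detected Nts, 3.56 to 3.91 in the 8 aged animals without and 3.51 to 3.95 in young rats. The choroid plexus list ran from -1.58 to 2.02 in the animals with detected Nts, from -1.95 to 0.04 in the aged animals without and from -1.16 to -0.09 in young rats. The part of adjoining tissue in these values was not tested.

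In the aged hippocampus Pdyn was the leading gene. Y_Sham animals had 5.69, 4.87, 5.13 and 5.46, and Y_iTBS animals 5.90, 4.75, 5.56 and 5.10. AU_Sham animals had 5.80, 6.13, 6.53 and 5.46, and AU_iTBS animals 5.57, 6.00, 5.98, 5.89 and 6.01. AI_Sham animals had 5.46, 5.53, 5.62 and 5.66, and AI_iTBS animals 5.75, 5.58 and 5.44. All 16 aged values exceeded the young mean of 5.31, but the highest young values lay among them. The difference was 0.45 (95% confidence interval 0.16 to 0.74, limma adjusted p 0.204), with 0.56 within the first scan batch and 0.11 within the later scans. In the cortex Pdyn differed by -0.24 (limma adjusted p 0.366), so the region gap of Pdyn was wider in aged than in young animals by 0.69 ± 0.21 (limma adjusted p 0.298). That difference of differences was called for 0 of the 10 genes and 0.0237% of all probes, and it had an unadjusted p under 0.05 for Pdyn, Penk (-0.57 ± 0.16) and Nts (-2.02 ± 0.67), a level reached by 15.9% of all probes.

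Of the remaining genes, Tac1 in the hippocampus (-0.31, limma adjusted p 0.267) and Vip in the cortex (-0.30, limma adjusted p 0.308) had the lowest p-values. Vip differed by -0.08 within the first scan batch and by -0.56 within the later scans. For Npy, Sst and Cck the aged minus young difference lay between -0.07 and 0.11 in both regions, with confidence limits from -0.38 to 0.40. Of the receptor genes 1 of 24 tested in the cortex was called by age, Tacr2, which fell by 0.73 in aged rats (SE 0.15, limma adjusted p 0.0303), and no receptor was called in the hippocampus. None of the processing genes, other precursors or marker genes was called by age in either region.

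**Figure D3:**
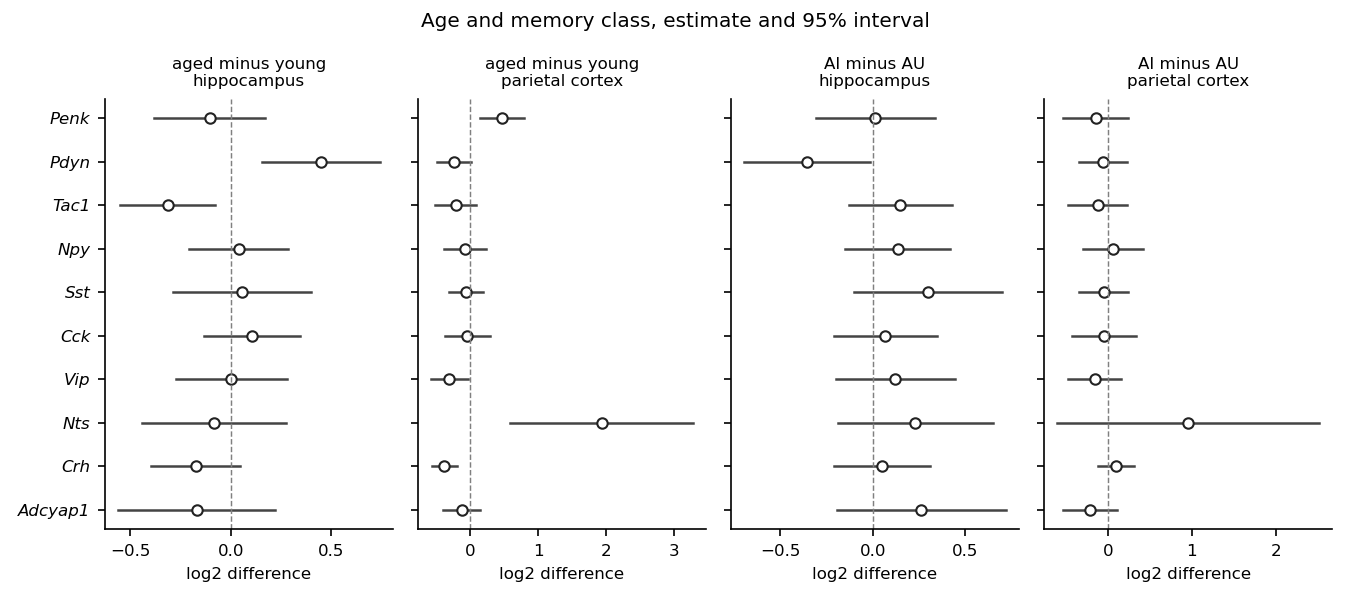
Difference by age (aged minus young) and by memory class (aged impaired minus aged unimpaired) of the 10 neuropeptide precursor genes in each region, in log2 units, with points for limma estimates and bars for 95% confidence intervals. The interval of Crh in the cortex lies below 0 for age, from -0.56 to -0.19, and that of Pdyn in the hippocampus above 0, from 0.16 to 0.74, and neither was called after adjustment.

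Memory class was compared among the aged rats, 7 impaired and 9 unimpaired. No neuropeptide gene was called by limma in either region, where 0.00308% of all probes were called in the hippocampus and 0% in the cortex. At an unadjusted p under 0.05 there was 1 gene in the hippocampus (6.62% of all probes) and 0 in the cortex (9.68%). That gene was Pdyn, with a mean of 5.58 in impaired and 5.93 in unimpaired animals. The difference was -0.35 (95% confidence interval -0.70 to -0.01, limma adjusted p 0.744), and all 7 impaired animals lay below the unimpaired mean. Among sham animals alone no gene reached an unadjusted p under 0.05 in either region, against 4.03% of all probes in the hippocampus and 6.44% in the cortex.

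The question put by the design was what iTBS did 48 h later. No neuropeptide precursor was called between iTBS and sham animals by limma in the young, AU, AI or pooled aged rats, in either region. In the background, 0% of all probes were called in each of these comparisons except AI cortex, with 0.00613%. The selection criteria of the study were also recomputed here (analysis of variance p and z-test p under 0.05, false discovery rate under 0.3, z-ratio beyond 1.5 and mean z-score above 0). In this recomputation 0 of the 10 genes were selected in any of the same comparisons, and 0.0265% to 0.13% of all probes were. The study used its own software, so the recomputation does not show which genes the study itself selected.

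In the young hippocampus 8 of 10 estimates were positive, with a median of 0.28 against -0.02 over all probes. Tac1 was the only gene at an unadjusted p under 0.05, a level reached by 4.54% of all probes. Its values were 4.50, 4.52, 4.48 and 3.94 in Y_iTBS and 3.96, 3.57, 3.85 and 3.91 in Y_Sham animals, so that the groups overlapped through Y_iTBS 4 alone. The difference was 0.54 (95% confidence interval 0.15 to 0.93, limma adjusted p 0.930), with 0.43 within the first scan batch and 0.74 within the later scans. Those later scans held 1 Y_iTBS and 2 Y_Sham hippocampus samples. Penk was 4.00, 4.22, 4.31 and 4.33 after iTBS and 4.14, 3.38, 3.90 and 3.71 after sham, a difference of 0.43 (limma adjusted p 0.930). Adcyap1 was 2.04, 2.56, 2.30 and 2.17 after iTBS and 1.99, 1.69, 1.67 and 1.85 after sham. These values did not overlap, as for 3.16% of all probes, but the difference of 0.47 was not called (limma adjusted p 0.930) and the second Adcyap1 probe gave 0.14. The differences of Sst (0.42) and Cck (0.35) were smaller with scan batch as a block, at 0.26 and 0.27. That of Cck was -0.08 within the later scans, with the same 1 Y_iTBS sample.

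Genes that mark the cortex were also higher in those young hippocampus samples. All 6 cortex markers had positive estimates (0.12 to 0.55, none called), and their mean level ran from 1.37 to 1.76 in Y_iTBS and from 1.09 to 1.53 in Y_Sham animals, against 2.63 to 3.05 in the cortex of young rats. The receptors Tacr3 (1.11), Cckbr (1.05), Crhr1 (0.99) and Sstr1 (0.98), each of them called higher in the cortex in the region comparison, were likewise above sham without being called (limma adjusted p 0.930 for each). They are some of the 9 receptors called higher in the cortex, not all of which are listed. Over the 23 receptors tested here 15 estimates were positive and 8 negative, from -0.55 to 1.22 with a median of 0.06. Of 7 tested striatum markers 6 had positive estimates, with a median of 0.37, and 3 had an unadjusted p under 0.05 (4.54% of all probes, none called). The mean level of the whole list of 8 genes, 7 of them well above background in all 24 hippocampus samples, did not overlap. It ran from 2.32 to 2.46 in Y_iTBS and from 2.05 to 2.24 in Y_Sham animals, and of single probes 3.16% did not overlap. The 6 choroid plexus markers all had negative estimates, with a median of -1.21. Of the 8 neuropeptide genes that were higher in the cortex than in the hippocampus, 7 had positive estimates here, while Npy was at -0.03, and Nts, which was not above background in the young cortex, was at -0.39. The part of tissue composition in these values was not tested.

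In the young cortex the iTBS minus sham differences lay between -0.17 and 0.13. Apart from Nts, whose interval ran from -2.34 to 2.01, all confidence limits lay between -0.69 and 0.67. In the aged rats the differences lay between -0.10 and 0.36 in the hippocampus, with Adcyap1 highest (limma adjusted p 0.978). In the aged cortex they lay between -1.12 and 0.12, with Nts lowest (95% confidence interval -2.68 to 0.45, limma adjusted p 1.00). At an unadjusted p under 0.05 the count of genes was 0 in each of these 3 comparisons, against 2.71%, 2.46% and 2.92% of all probes.

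Divided by memory class, Tac1, Sst and Cck in the AU cortex shared the lowest adjusted p (limma, 0.579), and only Tac1 had groups that did not overlap. It was 4.75, 4.98, 4.75, 5.09 and 5.07 in AU_iTBS and 5.74, 5.10, 5.39 and 5.15 in AU_Sham animals, a separation found for 1.63% of all probes. The difference was -0.42, with -0.13 within the first scan batch and -0.91 within the later scans, which held 3 AU_iTBS animals and 1 AU_Sham animal. At an unadjusted p under 0.05 the count of genes was 0 in all 4 comparisons within AU or AI rats, against 2.29% and 8.39% of all probes in AU hippocampus and cortex and 1.88% and 4.08% in AI. In the AI cortex the largest difference after Nts was that of Pdyn, at 0.42 (limma adjusted p 1.00), with 4.87, 5.12 and 5.30 in AI_iTBS and 4.52, 5.11, 4.56 and 4.50 in AI_Sham animals.

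**Figure D4:**
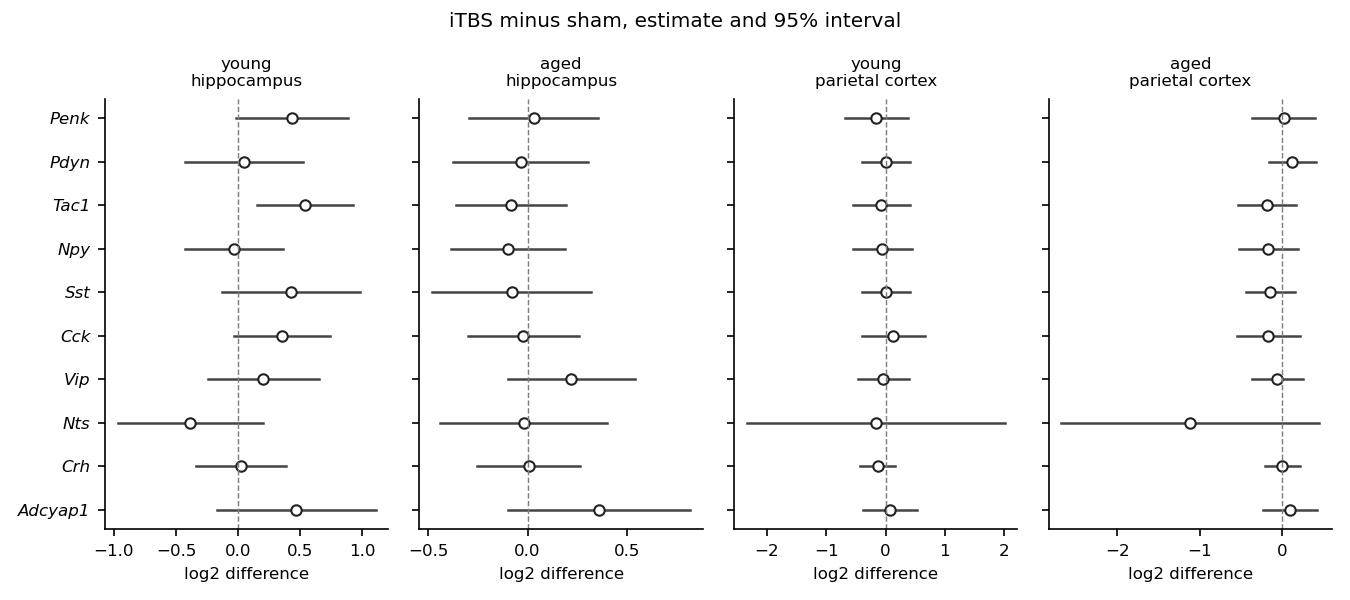
Difference between iTBS and sham (log2, iTBS minus sham) of the 10 neuropeptide precursor genes in young and aged rats, in the hippocampus and the parietal cortex, with points for limma estimates and bars for 95% confidence intervals. The interval of Tac1 in the young hippocampus, from 0.15 to 0.93, excludes 0 before adjustment, and none was called after it.

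Whether the iTBS effect differed between ages, memory classes or regions was tested as the difference of the effects. No neuropeptide gene was called in any of these tests, where 0% of all probes were called except for memory class in the cortex (0.0123%). The iTBS effect on Tac1 in the hippocampus was lower in aged than in young rats by -0.62 ± 0.23 (limma adjusted p 0.799), 1 of 10 genes at an unadjusted p under 0.05 against 4.31% of all probes. In the cortex the effects of iTBS in AI and AU rats differed for Penk (-0.81 ± 0.37), Pdyn (0.60 ± 0.28) and Crh (0.45 ± 0.21) at an unadjusted p under 0.05, which 8.74% of all probes reached, and each had a limma adjusted p of 0.56. For Penk that difference was -1.04 within the first scan batch and -0.01 within the later scans. The later scans held 1 animal each of AI_iTBS, AI_Sham and AU_Sham and 3 of AU_iTBS. The difference by age in the cortex and that by memory class in the hippocampus had 0 genes at an unadjusted p under 0.05, against 3.22% and 1.65% of all probes. Between the regions the iTBS effect differed for 0 genes at an unadjusted p under 0.05, against 2.68% of all probes.

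**Figure D5:**
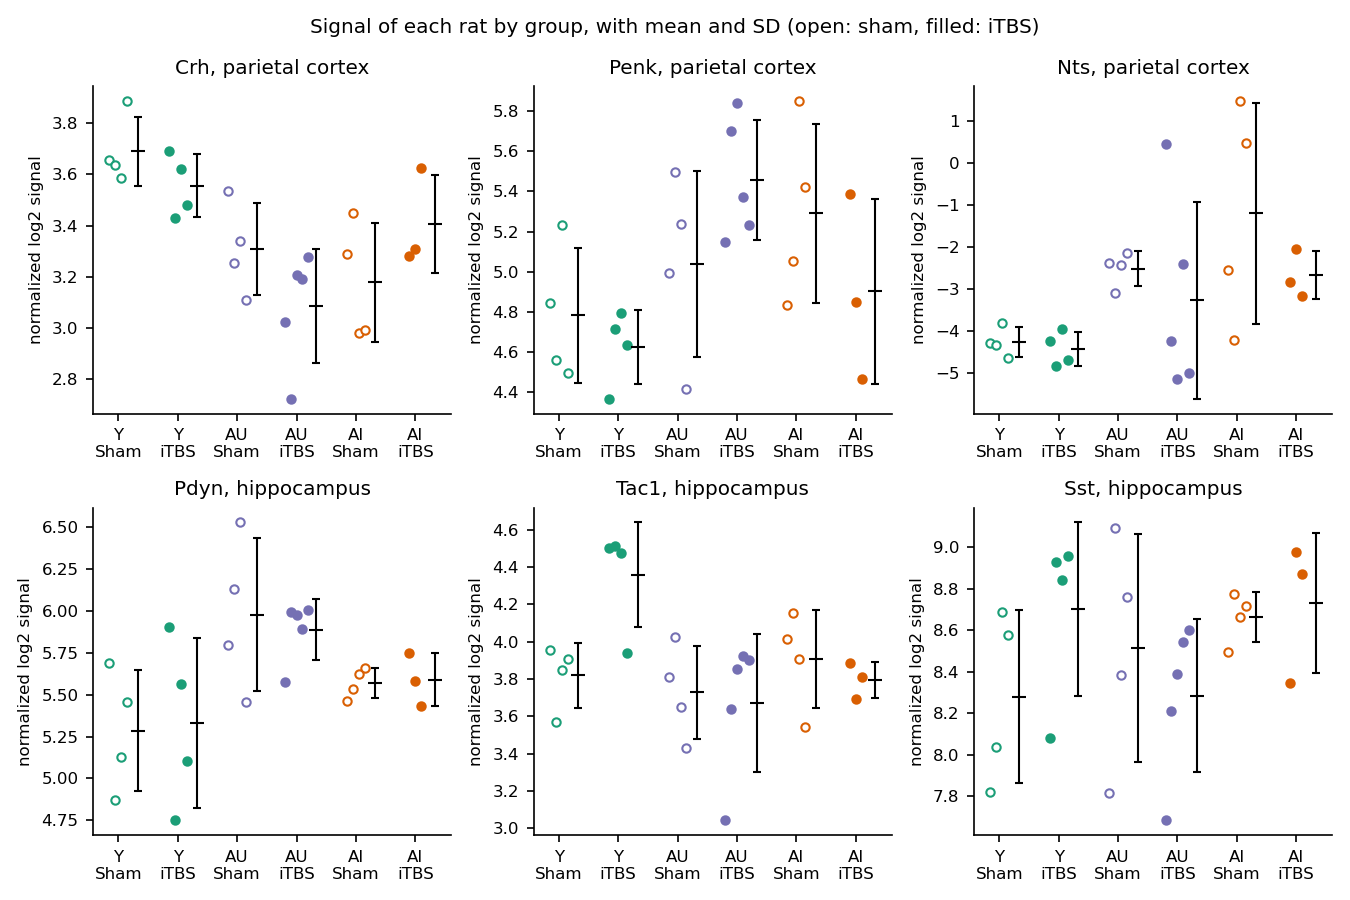
Levels of 6 genes and regions named above (log2 signal, 0 = mean of the array's probes) in every animal of the 6 groups, with open points for sham, filled points for iTBS and bars for mean ± SD. In the cortex 15 of 16 aged rats lie below the young mean of Crh, and Nts spreads from -5.14 to 1.47 in aged rats and from -4.84 to -3.81 in young rats.

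Several of the genes differed between the scan batches. With group means removed, the later scans were lower in the hippocampus by 0.42 for Npy (SE 0.07), 0.62 for Sst (0.10) and 0.33 for Cck (0.09), and higher by 0.41 for Vip (0.10). Npy ran from 7.68 to 8.28 in the first batch and from 7.32 to 7.64 in the later scans of the hippocampus, and all first-batch values lay above the later ones. In the cortex the later scans were lower by 0.49 for Npy, 0.53 for Cck, 0.34 for Sst and 0.35 for Pdyn. Crh, Penk and Tac1 in the hippocampus and Crh, Penk and Vip in the cortex shifted by less than 0.05.

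Covariation between animals was examined after group means were subtracted, as 10 relations of a gene between the regions and 90 relations of pairs of genes within a region, each over 24 animals and adjusted within its family. Within a batch the group means were subtracted again. In the later scans every group but Y_Sham (2 animals) and AU_iTBS (3) had 1 animal. Such animals add nothing to r there, so the later-scan values rest on few animals and are a description. The 2 farthest animals left out were those farthest from the median of the first-named gene, or of the hippocampus value. Between hippocampus and cortex 3 of the 10 relations had an adjusted permutation p under 0.05. Crh correlated at r = 0.53 (permutation p 0.00819, adjusted 0.041) and rho = 0.53 (0.00824, adjusted 0.0275), and still at r = 0.53 without the 2 animals farthest from the median. Within the first scan batch it was 0.52 and within the later scans 0.64. Npy correlated at r = 0.71 (permutation p 9e-05, adjusted 9e-04) and rho = 0.70 (0.00018, adjusted 0.0018), and at 0.66 without the 2 farthest animals. Within the first batch it was 0.15 and within the later scans 0.33, so that relation was weaker within the batches. Adcyap1 correlated at r = 0.49 (permutation p 0.0147, adjusted 0.049) and rho = 0.34 (0.107, adjusted 0.153), with 0.49 without the 2 farthest animals and 0.25 and 0.29 within batches.

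Of the 90 pairs 13 had an adjusted permutation p of r under 0.05. Penk and Tac1 in the hippocampus correlated at r = 0.61 (permutation p 0.00168, adjusted 0.0168) and rho = 0.53 (0.00836, adjusted 0.0627), with 0.53 without the 2 farthest animals and 0.56 and 0.82 within batches. Tac1 and Crh in the hippocampus correlated at r = 0.58 (permutation p 0.00237, adjusted 0.0194) and rho = 0.55 (0.00591, adjusted 0.0484), with 0.41 without the 2 farthest and 0.55 and 0.74 within batches. Pdyn and Vip in the cortex correlated at r = 0.59 (permutation p 0.00284, adjusted 0.0213) and rho = 0.48 (0.0181, adjusted 0.112), with 0.76 and 0.99 within batches. Without the 2 animals farthest for Pdyn it was 0.32, so r over all animals depended on them. In the other 10 relations, each of which included Npy, Sst or Cck, r was nearer to 0 or of opposite sign within at least 1 of the batches. The relations of Tac1 with Penk and Crh were also slightly nearer to 0 within the first batch. Some of the 10 changed little there, as did Npy and Sst in the cortex (r = 0.80, with 0.78 within the first batch and 0.36 within the later scans). Npy and Sst in the hippocampus gave r = 0.82 and rho = 0.80 (permutation p 1e-05 for each, the smallest possible, adjusted 3e-04), with 0.77 without the 2 farthest but 0.23 within the first batch and 0.74 within the later scans. Sst and Cck in the cortex gave r = 0.86 and rho = 0.85 (permutation p 1e-05 for each, adjusted 3e-04), with 0.83 without the 2 farthest, 0.82 within the first batch and -0.50 within the later scans.

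Genes whose level across the 24 animals was most like a neuropeptide gene were searched among named genes above background in every animal, after group and scan batch means were subtracted, as a description over shared arrays. In the hippocampus Vip was nearest to Coro2a (r = 0.90) and Ephx4 (0.89), Cck to Vxn (0.88) and Eif3h (0.87), and Pdyn to Plpp4 (0.88) and Zfpm2 (0.88). Adcyap1 was nearest to Syt2 (0.87) and Tcf19 (0.83), Penk to Prkra (0.86) and P2rx2 (0.83), Nts to Igfbp4 (0.85) and Ankrd37 (0.84), and Tac1 to Nat1 (0.84). In the cortex Cck was close to Ceacam9 (0.97), while Vip was nearest to Marcks (0.92) and Zfr (0.91) and Sst to Uchl1 (0.85) and Mbp (0.82). Crh was nearest there to Ahrr (0.77) and to Ucn (0.76), the gene of the related peptide urocortin. No nearest gene of a member was itself 1 of the 10.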

How the data were processed

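RNA of hippocampus and parietal cortex was hybridised by the authors to 56 Agilent 1-colour rat arrays (Cy3, 62976 features), scanned with Feature Extraction 12.0.3.1. Per the file headers, the deposited intensity column used here is the processed signal, already background-subtracted by the scanner software, and the deposited score column is the authors' z-score of log values per array, which was matched to within 0.005 and served as a check and an alternative. From the deposited intensity values of 58717 non-control features, log2 signals were taken after outlier spots (267 to 1448 per array) were dropped, copies of a probe were averaged, and each array was z-scored over its probes, the authors' own scaling, then rescaled by 4.081, the average SD over arrays, to return to log2 units. The number of arrays limits the precision, and no count or depth exists for this assay.

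Accessions were named through RefSeq, which gave a symbol to 21109 of 45598 probes (46.3%). A probe was tested where 3 or more of the 24 animals had it well above background in that region (32417 in the hippocampus, 32603 in the cortex, 33720 between regions). limma 3.58.1 in R 4.3.3 fitted 6 group means per region, and for regions the within-animal difference, with eBayes and Benjamini-Hochberg adjustment over all probes tested, and all p-values were two-sided. Scripts were tested on simulated data. The alternatives were other scalings, quantile normalization, normexp with offset 50, other filters, scan batch, slide or replicate number as a block, within-batch fits, handling of the repeats and leaving out each animal. The mean signal column was not used here, so normexp was run on the median signal and median background.

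The members and gene lists were chosen with earlier results of these data known. All 10 members are described, and of each list up to 3 called genes per direction with the largest differences are named, as are the 2 named genes nearest to a member across animals. A few genes that these rules would name are not reported here, and a few further list genes were named after their values were seen. Same-numbered animals of different groups did not deviate together beyond their shared scan batch (median r 0.154 against 0.158 for different numbers within a batch of the hippocampus, 0.17 against 0.175 in the cortex), so numbers were not taken as pairs.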

Additional observations from a re-analysis of the deposited data

Results flagged for a closer look

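Each of 100 groups of 4 or 5 animals (10 genes, both regions) was searched for a single animal far from the others, and 11 were found, where chance gives about 1 in 20 groups. Values are levels on the log2 scale. In the hippocampus Pdyn was 5.574 in AU_iTBS 1 (others 5.890 to 6.006), Tac1 was 3.938 in Y_iTBS 4 (others 4.478 to 4.516), Sst was 8.080 in Y_iTBS 1 (others 8.840 to 8.958) and Crh was 1.643 in AI_Sham 2 (others 1.292 to 1.349). In the cortex Pdyn was 4.824 in Y_Sham 1 (others 5.236 to 5.284) and 5.111 in AI_Sham 2 (others 4.499 to 4.563), and Npy was 8.707 in Y_iTBS 4 (others 8.244 to 8.311). Cortex Vip was 6.208 in Y_iTBS 2 (others 6.444 to 6.460) and 6.764 in AU_iTBS 4 (others 5.819 to 6.042). Cortex Adcyap1 was 2.127 in AU_iTBS 1 (others 2.673 to 2.804) and 1.559 in AI_Sham 1 (others 2.523 to 2.591). AI_Sham 2 appears with high values for Pdyn in the cortex and Crh in the hippocampus, and is also the animal whose cortex matched the repeat array labelled as another rat.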

How the results depend on the processing

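Over 24 comparisons the number of neuropeptide genes called was recomputed under 944 alternatives and equalled the reported count in 937. In the cortex by age the count of 0 became 1 (Crh) in the settings without AU_iTBS 4 and without AI_Sham 2, so leaving out 1 animal gave 0 to 1. Between regions the count was 9 of 10 with slide as a block and with probes required above background in every animal (Nts then not tested), and 7 of 10 for sham animals within the later scans, where Pdyn, Npy and Adcyap1 kept their direction without being called. Adcyap1 turned direction with slide as a block, to 0.22 over all animals and 0.10 in sham animals (limma adjusted p 0.712 and 0.895), and the cause was not tested. Region differences under that block rest on the 2 slides that held both regions. With the replicate number as a block the counts were the same, 0 in every comparison by age, memory class and iTBS, and Crh in the cortex by age was -0.39 (limma adjusted p 0.114). Without the pairing of regions by animal the counts of genes called between regions stayed at 10 and 10. Counts over all probes moved more. By age the count in the hippocampus was 166, and 94 to 258 when 1 animal was left out, 0 and 14 within the scan batches and 101 to 2045 under the other alternatives (2045 with slide as a block). In the cortex it was 131, and 60 to 292, 23 and 24, and 57 to 180 in the same order. Nts in the cortex was above background in 8 of 24 animals, so its differences there depend on background handling, and ranged from 0.60 to 2.95 by age.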

Other observations

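The array with conflicting labels (its title gives young sham and its description aged unimpaired iTBS, both hippocampus) was closest to the hippocampus of AU_iTBS 4 (r = 0.97 over 61 probes, next best 0.40). Its levels on the log2 scale were 4.22 for Penk, 5.94 for Pdyn, 3.85 for Tac1, 7.66 for Npy, 8.67 for Sst, 9.84 for Cck, 4.55 for Vip, 4.84 for Nts, 1.63 for Crh and 2.32 for Adcyap1.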
